A study of Homo sapiens with 8 samples.

Results

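J-domain proteins, also called Hsp40s or DNAJ proteins, are the co-chaperones that recruit Hsp70 to its clients. Their J domain carries the tripeptide His-Pro-Asp (HPD), which contacts Hsp70 and stimulates its ATPase, so that Hsp70 closes on the bound polypeptide. Class A and B members resemble bacterial DnaJ in their domain order and mostly serve general folding in the cytosol and nucleus, whereas class C members share only the J domain with DnaJ, often beside other domains, and place Hsp70 at particular sites, such as the mitochondrial import motor, clathrin coats or the endoplasmic reticulum (ER) membrane. Hsp70 and its J-domain partners also bind nascent chains, as do the chaperonin TRiC and prefoldin (PFD), which hands clients to it.

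The genes described here are the protein-coding genes whose symbol is DNAJA, DNAJB or DNAJC followed by a number, with at least 100 counts summed over the 4 input libraries. The symbols DNAJC2 and DNAJB11 were left out by the rule, which used no difference between groups. Of 60664 gene identifiers in the count files, 42 were protein-coding genes with such a symbol, and 37 of them met the rule. Below the minimum lay DNAJB7 with 21, DNAJB13 with 11 and DNAJB8 with 7 input counts, and just above it lay DNAJC12 with 136 and DNAJC28 with 193.

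The footprints came from selective ribosome profiling, in which ribosome-protected mRNA fragments are sequenced from total ribosomes (input) and from the ribosomes that are pulled down with a tagged chaperone. Both lines were derived from U2OS, a human osteosarcoma line. The TRiC line (genotype CCT4-Halo) carries the HaloTag in a loop of the TRiC subunit CCT4, and the PFD line (genotype PFDN4-Halo) carries it at the C terminus of the prefoldin subunit PFDN4. Both lines were made by CRISPR-Cas9 integration and sorted to single clones. Each line gave 2 input and 2 pulldown libraries, and no library from untagged cells was analysed here. All cells received 100 µg/ml cycloheximide for 1 min, which arrests elongation, and then the crosslinker DSP at 2 mM for 30 min. Nothing in the labels says whether the 2 replicates of a group came from separate cultures, so p-values measure the spread between these libraries.

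Library totals ran from 9523128 to 32637658 counts, and J-domain genes took 0.192% to 0.236% of them. The PFD pulldown libraries were the most unequal, with 9523128 and 28582306 counts. Over the J-domain genes with counts in both replicates, the median absolute log2 ratio between replicates was 0.07 for TRiC input, 0.14 for TRiC pulldown, 0.26 for PFD input and 0.38 for PFD pulldown. With the 2 libraries of a group pooled, coverage reached at least 0.5 reads per codon in 34 of the 37 genes in each TRiC group. It did so in 31 genes in each PFD group and in 30 genes in all 4 groups. Of the osteoblast-lineage markers, COL1A1 had 45087 to 154571 counts per library, SPARC 20713 to 95181 and RUNX2 613 to 1920. The other 5 were low: ALPL had 62 to 95 in the TRiC libraries and 358 to 811 in the PFD libraries, COL1A2 had at most 66, BGLAP 24 and SP7 8, and IBSP had 0 in all 8. Among markers of other lineages, CD3E had 0 counts in every library, and the highest counts were 5 for PTPRC, 6 for ALB, 21 for CDH1, 68 for PECAM1 and 277 for EPCAM.

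All 37 genes encode exactly 1 HPD tripeptide in the reading frame of their representative GENCODE 44 transcript, against 5.6% of 19749 coding genes that hold HPD at least once. The motif began within the first 40% of the protein in 28 genes and past 50% in the other 9, among them DNAJC15, DNAJC19 and DNAJC22. Of the synonymous spellings, 12 occurred, with CAC for histidine in 22 genes and CAT in 15. The stretches below are the coding sequence around the motif for genes on which the results turn: first the 7 called in the TRiC pulldown, then 2 that were lower in the inputs of the PFD line. Each is 75 bases, 5′ to 3′ along the mRNA, with the HPD codons in capitals. Coordinates are those of the HPD codons in GRCh38.
DNAJA1 (chr9:33026584-33026592, plus strand): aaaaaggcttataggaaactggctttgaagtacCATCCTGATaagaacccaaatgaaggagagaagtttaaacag
DNAJA2 (chr16:46971920-46971928, minus strand): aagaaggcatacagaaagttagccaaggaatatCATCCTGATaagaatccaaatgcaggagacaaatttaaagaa
DNAJB1 (chr19:14518248-14518256, minus strand): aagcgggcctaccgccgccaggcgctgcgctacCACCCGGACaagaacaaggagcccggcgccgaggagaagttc
DNAJB5 (chr9:34993327-34993335, plus strand): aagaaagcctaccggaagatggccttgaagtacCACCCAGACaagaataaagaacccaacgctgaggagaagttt
DNAJC9 (chr10:73247055-73247063, minus strand): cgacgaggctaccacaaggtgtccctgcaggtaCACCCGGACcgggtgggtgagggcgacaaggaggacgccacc
DNAJC19 (chr3:180985930-180985938, minus strand): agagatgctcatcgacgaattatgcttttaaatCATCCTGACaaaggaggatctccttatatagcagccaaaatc
DNAJC25 (chr9:111631636-111631644, plus strand): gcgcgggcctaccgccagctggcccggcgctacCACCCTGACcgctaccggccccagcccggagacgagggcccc
DNAJC15 (chr13:43085826-43085834, plus strand): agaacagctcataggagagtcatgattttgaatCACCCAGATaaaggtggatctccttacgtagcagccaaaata
DNAJC22 (chr12:49351389-49351397, plus strand): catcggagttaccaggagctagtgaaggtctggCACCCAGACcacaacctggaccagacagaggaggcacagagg

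Aligned at the motif without gaps, DNAJC15 and DNAJC19 shared 58 of the 75 bases, DNAJA1 and DNAJA2 shared 56, and DNAJB1 and DNAJB5 shared 53, against a median of 36 over the 666 pairs of J-domain genes. A stretch of 19 residues with a mean Kyte-Doolittle hydropathy of at least 1.6, as membrane spans and many signal peptides have, occurred in 16 of the 37 proteins. Over all coding genes 39.8% had such a stretch. Because fragments were counted only where they aligned uniquely, genes with near-identical copies may be undercounted. Pseudogenes carrying the gene's own name were annotated for 8 genes, with 9 of DNAJC19 and 6 of DNAJA1. The exons of DNAJC9, DNAJC14 and DNAJC17 overlapped those of an opposite-strand gene over 56.5%, 34.9% and 27.9% of their bases, and their counts may include that gene where strand was not used.

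Levels in total ribosomes were given as CPM, the counts scaled to library size by TMM, over the coding length in kilobases (CPM per kb). Such a level reflects both how much of an mRNA there was and how densely ribosomes covered it, and these cannot be told apart here, nor can fewer cells making a protein from less made per cell. The class A gene DNAJA1, a general cytosolic partner of Hsp70, was the most translated J-domain gene, with 307 and 319 CPM per kb in the TRiC line against 483 and 384 in the PFD line. It held 20.0% of all J-domain footprints in the inputs. The next levels were much lower and close to each other. DNAJA2, its cytosolic paralogue, had a mean of 128 over the 4 inputs, DNAJB1, the heat-inducible class B protein, had 112, and DNAJB2, which binds ubiquitinated clients, had 97.9.

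Below these, DNAJC15, a relative of the import motor subunit, had 90.3 CPM per kb, and the H3-H4 histone co-chaperone DNAJC9 had 88.5. DNAJC10, an ER disulfide reductase, had 87.5, and DNAJC7, a tetratricopeptide-repeat partner of Hsp70 and Hsp90, had 83.1. DNAJB5, a class B paralogue of DNAJB1, had 73.5, and DNAJC5, the cysteine-string protein of secretory vesicles, had 66.7. The means of DNAJC15, DNAJC9 and DNAJC10 over the 4 inputs lay closer together than the replicates of the PFD inputs did, so the order of these means is not resolved. DNAJC15 was far from even between the lines, at 132 ± 14.2 in the TRiC inputs and 48.2 ± 4.42 in the PFD inputs (SD, n = 2). In the TRiC inputs it lay above DNAJC9 (76.1 ± 5.91) and DNAJC10 (85.3 ± 0.23). In the PFD inputs it lay below both (101 ± 10.9 and 89.7 ± 4.67). At the low end were DNAJC6, DNAJC12, DNAJC27, DNAJC25 and DNAJC28, with means from 1.47 to 3.18. The levels spanned 253-fold, with a median of 31.6 CPM per kb over the 37 genes.

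**Figure D1:**
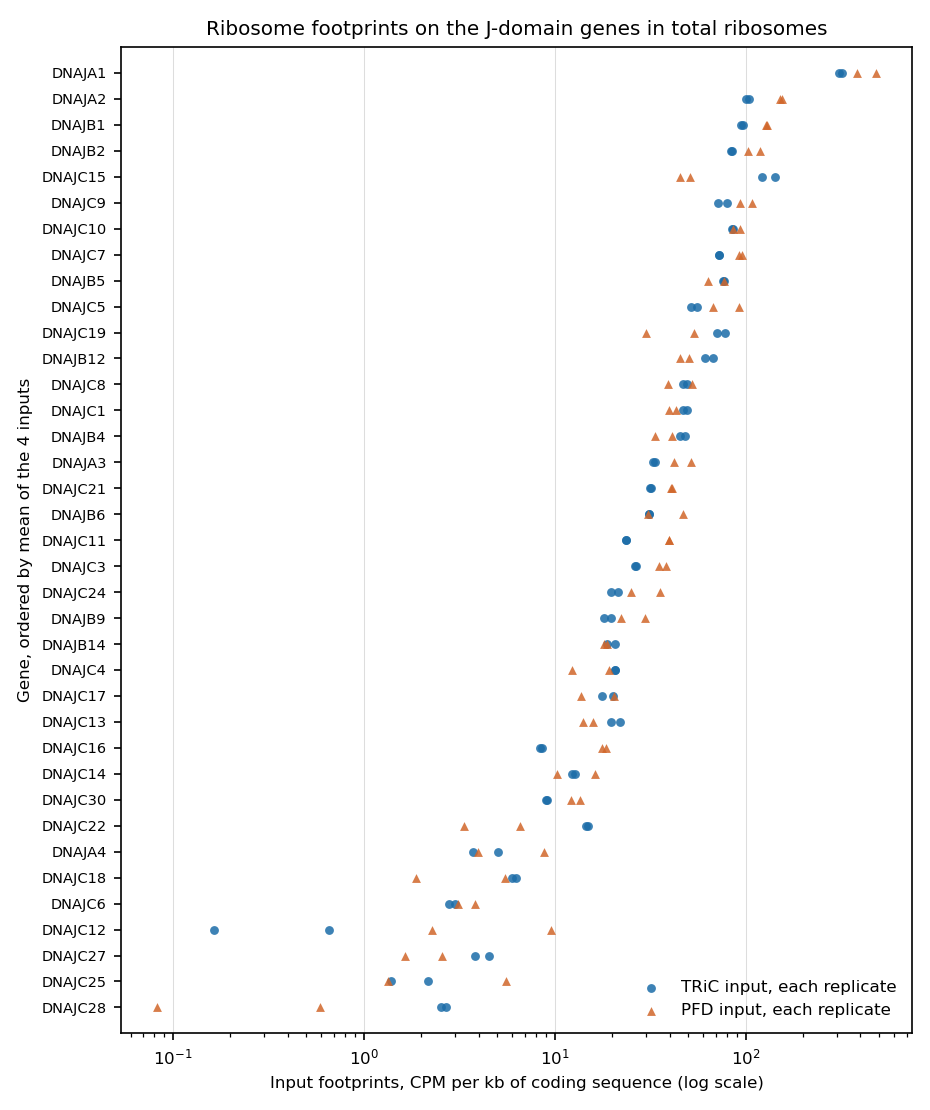
Input footprints of the 37 J-domain genes in CPM per kb of coding sequence (log axis), with 1 point for each replicate of the TRiC inputs (circles) and the PFD inputs (triangles). DNAJA1 stands alone at the top at 307 to 483, and the replicates spread most for the genes at the bottom.

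The first comparison asked which J-domain nascent chains were over- or under-represented on TRiC-bound ribosomes. All 37 genes were tested. Footprints of DNAJC25 rose in the TRiC pulldown, and those of DNAJA1, DNAJA2, DNAJB1, DNAJB5, DNAJC9 and DNAJC19 fell. The decreases were small, from 0.23 to 0.51 on the log2 scale. Tests were edgeR's quasi-likelihood test with Benjamini-Hochberg adjustment over all genes tested and a threshold of 0.05. The 1 gene called higher compares with 8.64% of all tested genes called higher, and the 6 called lower compare with 10.6% called lower. The log2 fold changes of the J-domain genes had a median of -0.05, with 16 above and 21 below 0, against a median of -0.003 over all 17934 genes tested. With library totals in place of TMM, 18 were above 0 and 19 below, and the share of all calls that were higher moved from 45.0% to 58.7%. The replicates of input and pulldown did not overlap for 23 of the 37 genes, against 60.4% of all genes tested.

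Among the general folding factors, DNAJA1 had 371 and 386 CPM in TRiC input against 322 and 321 in pulldown. The log2 fold change was -0.23 with an SE of 0.07 (n = 2 per group, edgeR adjusted p = 0.0229). DNAJA2 had 127 and 131 CPM in input against 103 and 113 in pulldown. The pulldown libraries of both class A genes lay below both inputs, and for DNAJA2 the log2 fold change was -0.26 ± 0.08 (SE, edgeR adjusted p = 0.0410). The third class A gene, DNAJA4, had a log2 fold change of 0.10 ± 0.25 (SE), and its groups overlapped.

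The class B gene DNAJB1 had 101 and 98.0 CPM in input against 82.3 and 80.2 in pulldown. Its log2 fold change was -0.29 ± 0.09 (SE, edgeR adjusted p = 0.0228). DNAJB5 had 96.9 and 98.6 CPM in input against 83.3 and 67.6 in pulldown, so that its pulldowns were both lower but differed from each other more than the inputs did. Its log2 fold change was -0.37 ± 0.10 (SE, edgeR adjusted p = 0.0139). The other class B genes tested, DNAJB2, DNAJB4 and DNAJB6, were not called, with log2 fold changes of -0.23, 0.02 and 0.21.

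Of the class C genes of the nucleus, DNAJC9 had 63.6 and 56.9 CPM in input against 49.3 and 46.9 in pulldown. Both pulldowns were lower, with a log2 fold change of -0.32 ± 0.10 (SE, edgeR adjusted p = 0.0305). DNAJC21, which acts in the maturation of the large ribosomal subunit, had -0.28 ± 0.10 (SE) and did not pass (edgeR adjusted p = 0.0584). The splicing-associated DNAJC8 and DNAJC17 had log2 fold changes of -0.06 ± 0.11 and -0.05 ± 0.15 (SE), both within their SE of 0. All 4 nuclear genes lay below 0, as did 21 of the 37 J-domain genes and 9029 of the 17934 genes tested. Of the 4, 1 was called, against 10.6% of all tested genes called lower.

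DNAJC19, the human counterpart of the mitochondrial import motor subunit Tim14, had 24.9 and 27.6 CPM in TRiC input against 17.3 and 19.7 in pulldown. This was the lowest log2 fold change of the family in this pulldown, -0.51 ± 0.13 (SE, edgeR adjusted p = 0.0120). Its paralogue DNAJC15, close to it in the motif stretch printed above, had 55.8 and 64.9 CPM in input against 63.0 and 75.2 in pulldown. Those groups overlapped, and DNAJC15 was not called, at 0.19 ± 0.11 (SE, edgeR adjusted p = 0.226). The other mitochondrial genes, DNAJA3, DNAJC11 and DNAJC30, lay at -0.17, -0.24 and -0.30 without a call.

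The gene called higher had few footprints. DNAJC25 had 66 and 46 counts in TRiC input against 125 and 112 in pulldown, which were 2.38 and 1.52 CPM against 3.75 and 4.45. The log2 fold change was 1.07 ± 0.35 (SE, edgeR adjusted p = 0.0384), a 2.10-fold higher level in the pulldown. The next highest were also low in footprints. DNAJC27, a Rab-like GTPase with a J domain, had 3.17 and 3.76 CPM in input against 4.92 and 6.63 in pulldown and was not called, at 0.73 ± 0.27 (SE, edgeR adjusted p = 0.0698). DNAJC24, which acts in diphthamide synthesis on elongation factor eEF2, was at 0.51 ± 0.19 (SE, edgeR adjusted p = 0.0737). Across the 37 genes, the log2 fold change and the log10 of the summed input counts had a Pearson r of -0.53 and a Spearman rho of -0.42. The input libraries enter both measures, and the genes share all libraries, so this is a description only.

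**Figure D2:**
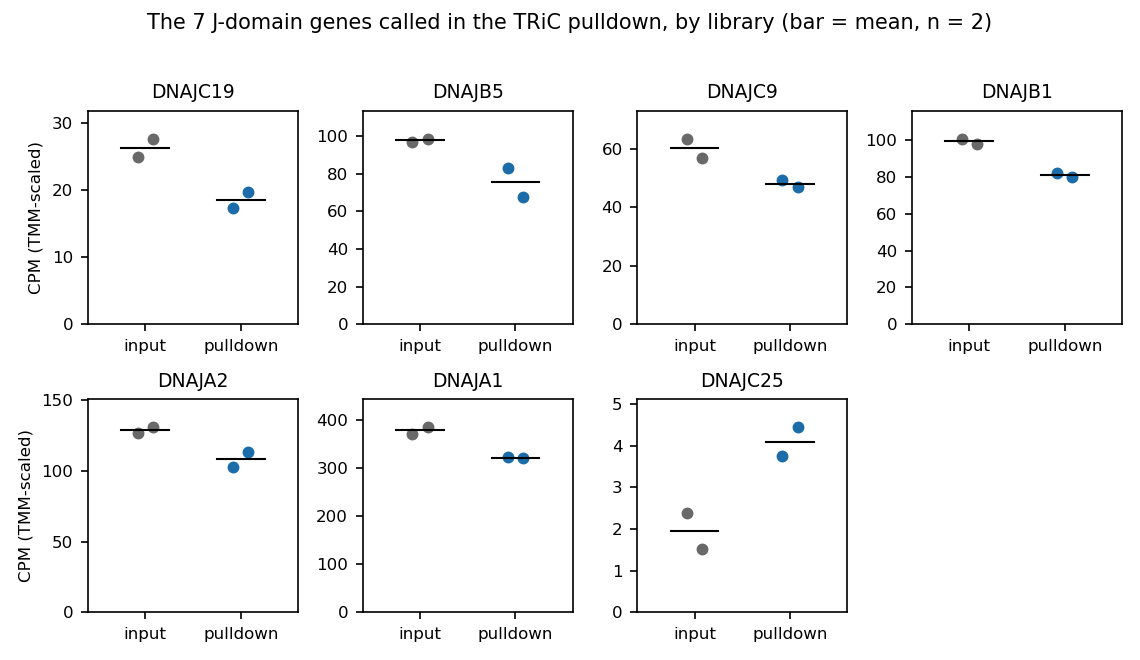
CPM of the 7 J-domain genes called in the TRiC pulldown, with 1 point for each replicate of input and pulldown and a bar at the mean (n = 2); axes start at 0 and differ between genes. In each gene the pulldown points lie on 1 side of the input points, and DNAJC25 is the gene where they lie above.

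None of the 9 ER genes passed in the TRiC pulldown, against 8.64% of all tested genes called higher and 10.6% lower. They lay on both sides of 0, from DNAJC14 at -0.29 to DNAJB14 at 0.36, with a median of 0.01. DNAJB14, which works with DNAJB12 in ER-associated degradation, had an edgeR adjusted p of 0.0558 and was called higher with library totals, cyclic loess, either stricter count filter, the replicate block, or TRiC pulldown replicate 1 left out. DNAJC10 had 206 and 206 CPM in input against 207 and 253 in pulldown, a log2 fold change of 0.16 ± 0.09 (SE, edgeR adjusted p = 0.223), and it was called higher with cyclic loess, with at least 100 counts in every library and without TRiC pulldown replicate 1. DNAJB12 was at -0.01, and DNAJC16 and the luminal DNAJC3 were at 0.17 and 0.15. The 3 genes of vesicles and endosomes, DNAJC5, the clathrin-uncoating auxilin DNAJC6 and the endosomal DNAJC13, were at -0.03, -0.11 and 0.17.

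The number of genes called depended on single libraries. Without TRiC input replicate 2 none of the 37 genes was called, without TRiC input replicate 1 there were 1 higher and 1 lower, and without TRiC pulldown replicate 2 there were 0 higher and 4 lower, whereas without TRiC pulldown replicate 1 there were 7 higher and 6 lower. When the test asked for a change beyond 1.5-fold, none was called in either direction. With library totals or cyclic loess DNAJA1, DNAJA2, DNAJB1 and DNAJC9 were not called. DNAJC25, the gene called higher, was not called with cyclic loess or with DESeq2. The genes called higher with cyclic loess were DNAJB14, DNAJC10 and DNAJC13. With the replicate number as a block, 5 genes were called higher and 8 lower, the added ones being DNAJB14, DNAJC13, DNAJC24 and DNAJC27 (higher) and DNAJB2 and DNAJC21 (lower).

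The second comparison asked the same of PFD-bound ribosomes. None of the 36 J-domain genes tested was called higher or lower by edgeR, against 0.0496% of all tested genes called higher and 0.191% lower. At an unadjusted p under 0.05 there were 3, or 8.33%, against 6.93% of all tested genes, and DESeq2 also called 0. Of the genes, 12 lay above 0 and 24 below, with a median log2 fold change of -0.13 against -0.0005 over all 14111 genes tested. Input and pulldown replicates did not overlap for 12 of the 36, against 38.7% of all genes. The common dispersion between replicates was 0.331 in this comparison and 0.0153 in the TRiC comparison, and DNAJC28 had too few counts to be tested.

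The highest fold changes in the PFD pulldown were at DNAJC27, DNAJA3 and DNAJC4. DNAJA3, the mitochondrial matrix DnaJ, had 72.9 and 61.1 CPM in PFD input against 124 and 82.6 in pulldown. Both pulldowns lay above both inputs but differed from each other more than the inputs did, at a log2 fold change of 0.62 ± 0.24 (SE, edgeR adjusted p = 0.714). DNAJC27 had 40 and 14 input counts against 2 and 184 in pulldown, so its replicates went opposite ways. DNAJC4 had 8.76 and 14.0 CPM in input against 20.9 and 9.51 in pulldown, also on both sides.

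The lowest were at DNAJC22, DNAJC12 and DNAJC14. DNAJC22 had 65 and 70 counts in input against 0 and 29 in pulldown, and DNAJC12, a partner of aromatic amino acid hydroxylases, had 108 and 14 in input against 0 and 64 in pulldown. In both genes the 0 was in replicate 1, the shallowest library, where DNAJC25 and DNAJC28 also had 0 counts. The ER membrane gene DNAJC14 had 21.2 and 34.1 CPM in input against 8.73 and 16.1 in pulldown, which were both lower, at -1.14 ± 0.48 (SE, edgeR adjusted p = 0.719). DNAJC28 had 13 and 1 counts in the PFD inputs and 0 in both PFD pulldowns, where a count of 0 in 38105434 allows up to 0.0787 CPM over the group. Because 13 of the 14 input counts came from replicate 1, no fold is given.

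The 6 genes called lower with TRiC showed no call with PFD. DNAJA1 had 563 and 458 CPM in PFD input against 427 and 433 in pulldown, with a log2 fold change of -0.25 ± 0.12 (SE, edgeR adjusted p = 0.769), about as large as in the TRiC pulldown but with a wider error. For the others the PFD values (± SE) were -0.07 ± 0.16 for DNAJA2, -0.07 ± 0.15 for DNAJB1 and -0.18 ± 0.22 for DNAJB5. DNAJC9 was at -0.22 ± 0.30 and DNAJC19 at -0.75 ± 0.67. None of these was called, and all lay below 0, as did 24 of the 36 J-domain genes tested. DNAJC7 had 134 and 141 CPM in input against 93.8 and 114 in pulldown, at -0.41 ± 0.17 (SE, edgeR adjusted p = 0.719). DNAJC25 had 113 and 15 counts in input against 0 and 115 in pulldown. Without PFD pulldown replicate 2, 1 J-domain gene was called higher and 6 lower.

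**Figure D3:**
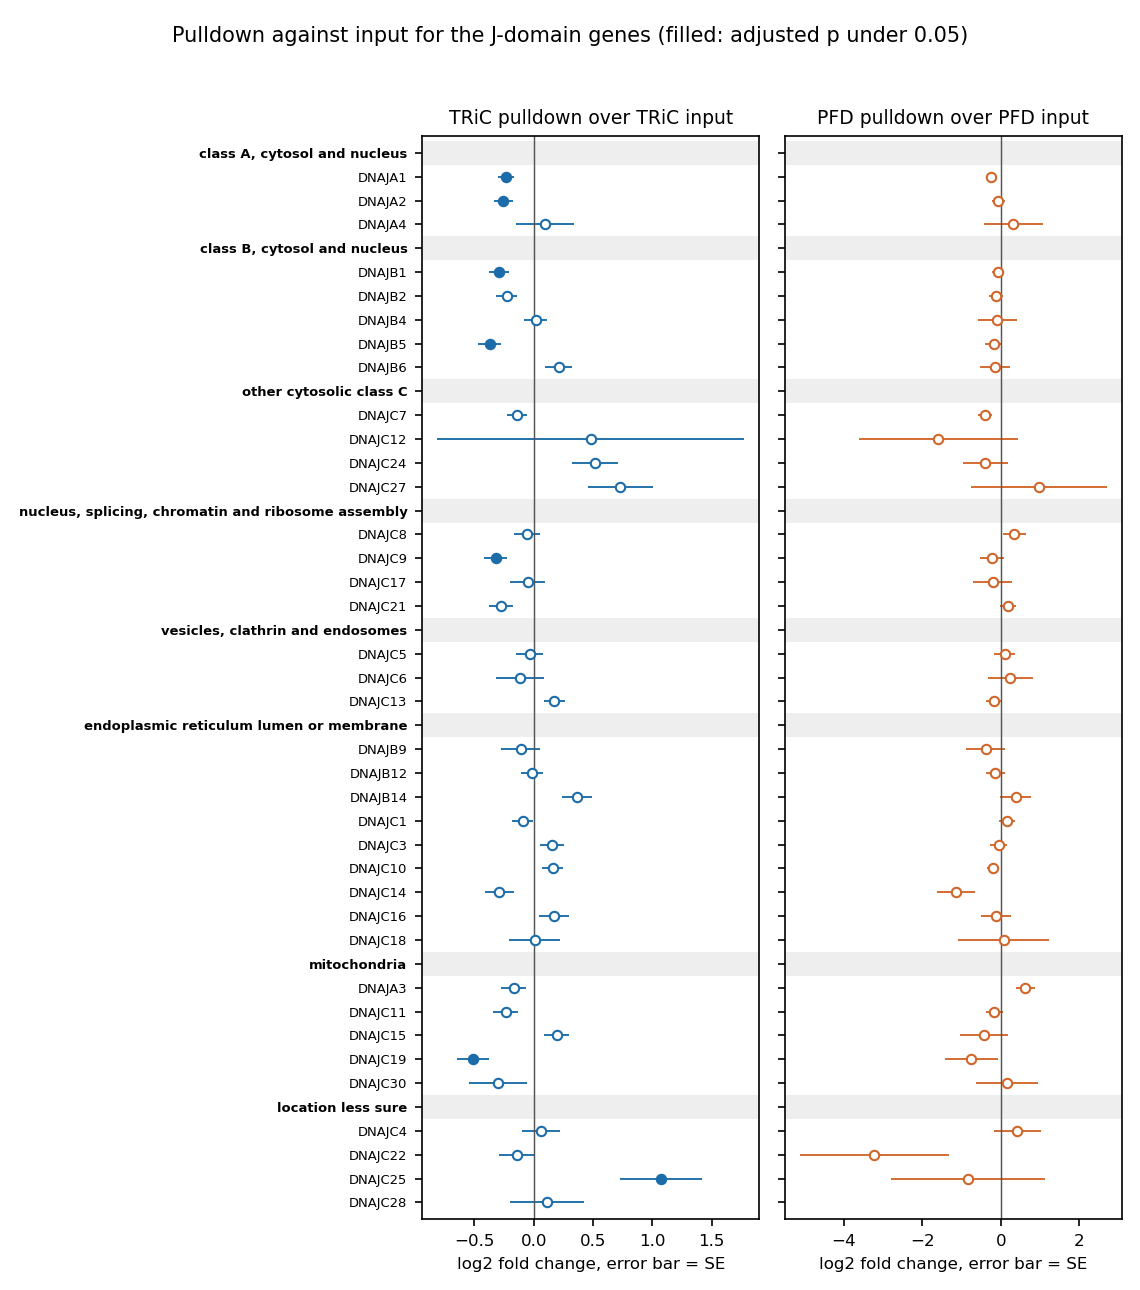
Log2 fold change of pulldown over input for each J-domain gene, grouped by cellular location, for TRiC (left) and PFD (right, on a wider axis); error bars are the SE of the fit and filled points passed the adjusted p threshold of 0.05. The 7 filled points are all on the TRiC side, and the PFD errors are widest for DNAJC12, DNAJC22, DNAJC25 and DNAJC27.

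Whether the enrichment differed between the chaperones was tested as an interaction over all 8 libraries. None of the 37 genes was called by edgeR (0 higher for TRiC against 0.0212% of all tested genes, 0 lower against 0.0159%). At an unadjusted p under 0.05 were 5 of the 37, or 13.5%, against 14.8% of all tested genes, and DESeq2 called 0. A call with TRiC and none with PFD is therefore not shown to be a difference between them. The TRiC enrichment minus the PFD enrichment was -0.77 ± 0.27 (SE, edgeR adjusted p = 0.269) for DNAJA3, the lowest of the family, and 0.38 ± 0.15 (SE, edgeR adjusted p = 0.319) for DNAJC10. For DNAJA1 it was 0.03 ± 0.16 and for DNAJC19 0.23 ± 0.66 (SE). Without PFD pulldown replicate 2, 8 genes were called higher and 1 lower.

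The third comparison set total ribosomes of the PFD line against those of the TRiC line. Footprints of 12 J-domain genes were higher in the PFD line, against 17.7% of all tested genes, and those of 4 were lower, against 22.6%. The higher genes of the cytosol and nucleus were DNAJA1, DNAJA2, DNAJB1, DNAJB2, DNAJC7, DNAJC9, DNAJC12 and DNAJC21. They were 2 of 3 class A genes, 2 of 5 class B genes, 2 of 4 other cytosolic class C genes and 2 of 4 nuclear genes. The other higher genes were the mitochondrial DNAJA3 and DNAJC11 and the ER genes DNAJC3 and DNAJC16. With cyclic loess DNAJA1, DNAJB2, DNAJC9 and DNAJC21 were not called. DNAJC9 and DNAJC21 were also not called with at least 100 counts in every library. The call of DNAJC21 was lost as well with the replicate block and without a filter on low counts. The lower genes were DNAJB12, DNAJC13, DNAJC15 and DNAJC22. The median log2 fold change was 0.32 over the 37 genes and -0.11 over all 16341 genes tested, and the replicates did not overlap for 30 of the 37, against 73.8% of all genes. With 1 library left out, the median over the J-domain genes ran from 0.09 to 0.31. Each line has its own tag, clone and libraries, so line, clone, tag and library preparation cannot be told apart. The counts were 4 higher and 2 lower without TRiC input replicate 1, 4 and 1 without TRiC input replicate 2, 16 and 10 without PFD input replicate 1, and 15 and 9 without PFD input replicate 2.

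The largest well-counted increase was at DNAJC16, an ER membrane protein, with 20.1 and 19.6 CPM in the TRiC line against 41.7 and 43.6 in the PFD line. The groups were far apart relative to their replicates, at a log2 fold change of 1.10 ± 0.14 (SE, edgeR adjusted p = 0.00274), or 2.15-fold. DNAJC11, of the mitochondrial outer membrane and cristae-organizing complexes, had 39.5 and 39.4 CPM against 66.6 and 66.6, at 0.75 ± 0.10 (SE, edgeR adjusted p = 0.00404). DNAJA2 had 125 and 129 CPM against 187 and 191, at 0.58 ± 0.07 (SE, edgeR adjusted p = 0.00257). In these 3 genes the lines differed by many times the gap between replicates.

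The other increases, apart from that of DNAJC12, were smaller. DNAJA1 had 366 and 380 CPM in the TRiC line against 575 and 457 in the PFD line, at 0.47 ± 0.11 (SE, edgeR adjusted p = 0.0231). DNAJB1 had 99.4 and 96.7 CPM against 131 and 132, at 0.42 ± 0.08 (SE, edgeR adjusted p = 0.0102). DNAJA3, DNAJC3, DNAJC9, DNAJB2, DNAJC7 and DNAJC21 followed, with log2 fold changes from 0.51 down to 0.36. DNAJC12 had 11 and 3 counts in the TRiC line against 108 and 14 in the PFD line, with a log2 fold change of 3.84 ± 1.13 (SE, edgeR adjusted p = 0.0425) that was 2.44 without PFD input replicate 1. It was not called without that library or without either TRiC input.

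The mitochondrial DNAJC15, a small inner membrane protein known as MCJ, had 55.0 and 64.0 CPM in the TRiC line against 23.1 and 20.3 in the PFD line, with no overlap. Its log2 fold change was -1.45 ± 0.15 (SE, edgeR adjusted p = 0.00153), and DNAJC15 and DNAJC16 were the 2 J-domain genes that stayed past the threshold under all 13 alternative settings tried for this comparison. DNAJC22 had 15.2 and 14.9 CPM against 3.44 and 6.74, at -1.59 ± 0.38 (SE, edgeR adjusted p = 0.0230). DNAJC13, a large protein of endosome sorting, had 132 and 148 CPM against 94.8 and 106, at -0.48 ± 0.10 (SE, edgeR adjusted p = 0.0166). DNAJB12 had 75.9 and 69.4 CPM against 51.0 and 56.9, at -0.43 ± 0.11 (SE, edgeR adjusted p = 0.0300). DNAJC19, the paralogue of DNAJC15, lay in the same direction at -0.81 ± 0.30 (SE) and was not called (edgeR adjusted p = 0.0804).

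All 4 genes that were lower in the PFD line encode a hydrophobic stretch, as does 1 of the 12 that were higher, DNAJC16. Of the 16 proteins with a stretch, 1 was called higher and 4 lower, with a median log2 fold change of -0.16. Of the 21 without, 11 were called higher and 0 lower, with a median of 0.39. The same division of all coding genes tested gave medians of -0.21 with and -0.05 without a stretch, 17.7% and 20.4% called higher, and 26.1% and 21.5% called lower. Other settings changed the calls. Without a stretch, DNAJC28 was called lower with DESeq2 and with no filter on low counts, and DNAJB4 with at least 100 counts in every library. With a stretch, DNAJC5 was called higher with DESeq2, the replicate block, no filter and at least 10 counts in every library. DNAJC19, also with a stretch, was called lower under all of these settings, and DNAJC1 with at least 100 counts. This division of the family was made with the values known, and the difference between the classes was not tested.

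**Figure D4:**
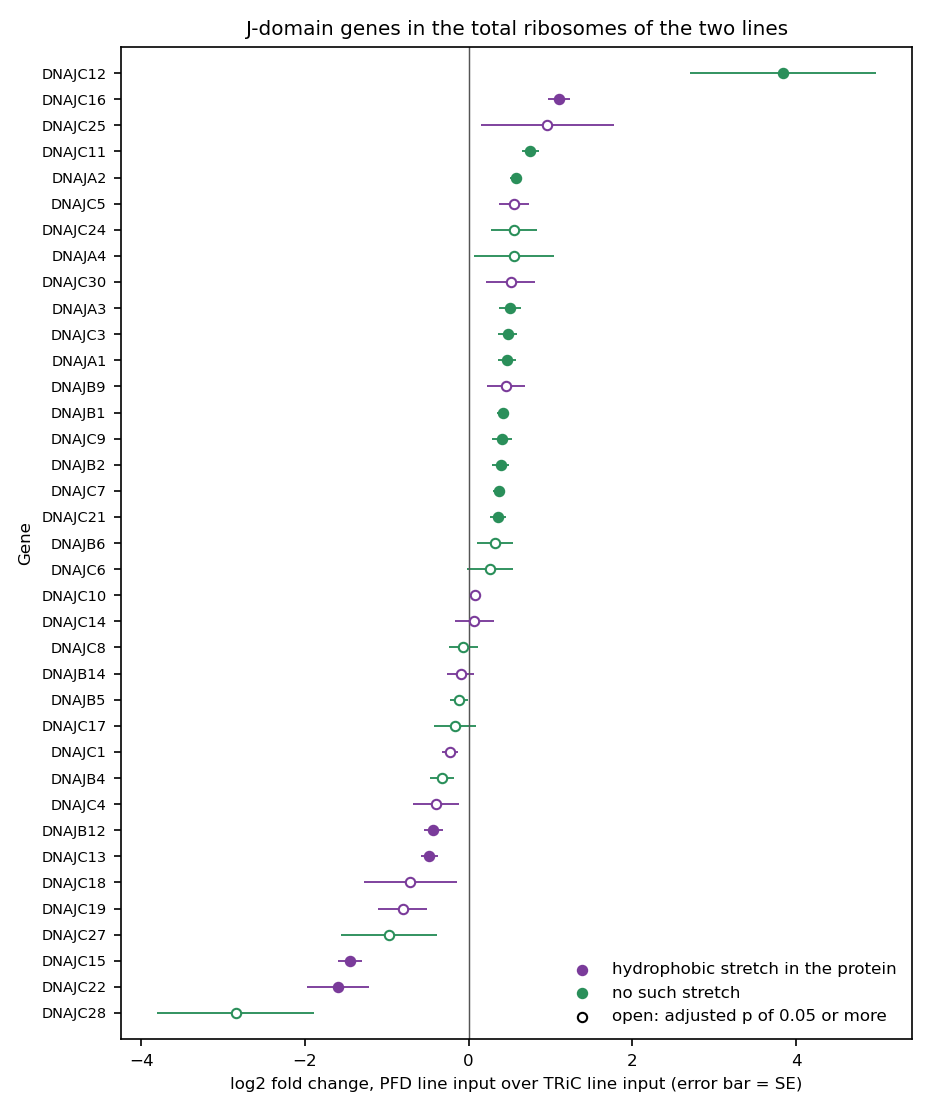
Log2 fold change of the PFD line input over the TRiC line input for the 37 J-domain genes in order of value, with the SE as error bars; filled points passed the adjusted p threshold of 0.05 and colour marks proteins with and without a hydrophobic stretch. DNAJC16 is the only filled point of a protein with a stretch on the right, and the filled points on the left are DNAJB12, DNAJC13, DNAJC15 and DNAJC22.

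The partners of the J-domain proteins were described from a list of 28 genes. It held 16 Hsp70-family genes, 10 genes listed under exchange factors, the class that releases ADP from Hsp70, and 2 interactors. Whether each listed gene acts in that way was not tested. In the TRiC pulldown 27 were tested, of which 0 were called higher and 9 lower (8.64% and 10.6% of all tested genes), with a median log2 fold change of -0.20. The 9 were the heat-inducible HSPA1A and HSPA1B, the constitutive HSPA8, and BAG1, BAG3, BAG6 and HSPBP1 from the list of exchange factors. The interactors ST13 (Hip) and the ubiquitin ligase STUB1 (CHIP) completed them. HSPBP1 had 64.9 and 59.6 CPM in input against 41.6 and 42.1 in pulldown, at -0.57 ± 0.10 (SE, edgeR adjusted p = 0.000747). HSPA8 had 453 and 504 CPM in input against 390 and 408 in pulldown, at -0.26 ± 0.07 (SE, edgeR adjusted p = 0.0163). The other 7 had log2 fold changes between -0.26 and -0.50. HSPA1A and HSPA1B are near-identical copies, so unique alignment leaves their counts uncertain.

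The organellar Hsp70s were not called in the TRiC pulldown. HSPA5 (BiP), the Hsp70 of the ER, had 1457 and 1456 CPM in input against 1414 and 1436 in pulldown, at -0.03 ± 0.06 (SE, edgeR adjusted p = 0.767), and its sign turned with library totals, with cyclic loess and with at least 100 counts in every library. HSPA9 (mortalin), the Hsp70 of the mitochondria, was at -0.18 ± 0.06 (SE, edgeR adjusted p = 0.0584). In the PFD pulldown 25 partners were tested and 0 were called in either direction by edgeR, with 1 at an unadjusted p under 0.05. There HSPA8 was at 0.12, HSPA5 at 0.16 and HSPA9 at 0.08.

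Between the inputs, 27 partners were tested, of which 10 were higher in the PFD line (17.7% of all tested genes) and 3 were lower (22.6%). HSPA8 had 447 and 498 CPM in the TRiC line against 1019 and 994 in the PFD line, at 1.09 ± 0.07 (SE, edgeR adjusted p = 0.000342). GRPEL1, the exchange factor of mitochondrial Hsp70, had 29.0 and 30.9 CPM against 60.6 and 61.1, at 1.02 ± 0.12 (SE, edgeR adjusted p = 0.00208). The other 8 were HSPA14, BAG2, HSPH1, HSPA12A, STUB1, BAG3, HSPBP1 and HSPA13, with log2 fold changes from 0.83 down to 0.31. Of these, STUB1 and HSPBP1 were not called with the replicate block, without a filter on low counts or with at least 100 counts in every library. BAG3, HSPBP1 and HSPA13 were not called with cyclic loess. The lower genes were SIL1, the exchange factor of BiP, at -0.59, HSPA1B at -0.54, and HSPA12B. HSPA12B had 49 and 44 counts in the TRiC inputs and 0 in both PFD inputs. Its level was at least 15.4-fold lower when 3 counts over the group were taken as the floor. The PFD pulldowns held 0 and 60 counts of it, so in that line its footprints were counted only in pulldown replicate 2. Across the alternative settings its log2 fold change ran from -8.37 to -1.80. The call was lost with the replicate block, with cyclic loess and without either TRiC input. HSPA5 and HSPA9 were not called, at -0.11 and -0.07.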

How the data were processed

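The authors deposited raw counts per gene for 8 libraries in 2 tables, 1 per cell line. Per the methods and labels, fragments were freed of ribosomal RNA with Bowtie2 2.4.2, deduplicated by molecular identifier (UMI-tools), and aligned to hg38 with STAR 2.7.10a, uniquely and with at most 2 mismatches. The strand setting and annotation release are not given in the sources used here. No normalization was applied to the deposited counts, which name genes by Ensembl identifier; 60463 identifiers were named through GENCODE 44 and 201 were not in it. Summed over all positions of a gene, such counts hold no information on where along the chain a chaperone bound.

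The members, the lists and the tests were chosen with earlier results of these data known. Named are all members called in any comparison, the 10 with the highest input level per length, the 3 highest and 3 lowest in each pulldown, and the called partners with HSPA8, HSPA5 and HSPA9. Each comparison was fitted on its own libraries over all genes passing filterByExpr, with TMM scaling, edgeR 4.0.16 (R 4.3.3) and Benjamini-Hochberg adjustment at 0.05; CPM are TMM-scaled within each fit. SE is the log2 fold change over the square root of F. The code was tested on simulated data. Alternatives used DESeq2 1.42.0, limma 3.58.1 with cyclic loess, library totals, other count filters, glmTreat, a replicate block and each library left out in turn. Library totals were 9523128 to 32637658; replicates differed by more than counting noise, so none was counted as a duplicate. Floors cover counting error only. The cell type was checked with marker lists.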

Additional observations from a re-analysis of the deposited data

How the results depend on the processing

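With 2 libraries per group and small fold changes, few calls were stable. In the TRiC pulldown (1 J-domain gene higher, 6 lower) the counts were 0 higher with DESeq2, 3 higher and 2 lower with library totals and with cyclic loess, 3 higher with at least 10 counts in every library, 4 higher and 3 lower with at least 100, and 0 in both directions with glmTreat against 1.5-fold and with all 8 libraries in 1 fit. In that fit all genes gave 16 higher and 15 lower calls in place of 1550 and 1894, and glmTreat gave 164 and 64. Leaving out 1 library gave 0 to 7 J-domain genes higher and 0 to 6 lower, and 797 to 1994 and 748 to 2704 of all genes. The methods took input and pulldown from ribosome pellets, but neither they nor the labels say that an input and a pulldown of the same number share a pellet. The deviations of same-numbered samples correlated at 0.185 in the TRiC line and -0.0226 in the PFD line, so pairing is not settled. With the replicate block, 5 J-domain genes were higher and 8 lower, and 14 partners were lower in place of 9; the block turned DNAJC27 in the PFD pulldown from 0.97 to -0.34. Partner calls were 0 lower with glmTreat and with all 8 libraries, and 2 to 11 lower with a library left out. HSPA5 turned to 0.0161 with library totals, 0.148 with cyclic loess and 0.0329 with at least 100 counts (log2).

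In the PFD pulldown, leaving out 1 library gave 0 to 1 J-domain gene higher, 0 to 6 lower and 0 to 2 partners higher; DNAJC4 then ran from -0.25 to 0.88 and DNAJC27 from -2.94 to 1.90. Over all genes DESeq2 called 256 higher and 295 lower in the PFD pulldown in place of 7 and 27, and 481 and 536 in the interaction in place of 4 and 3, with 0 J-domain genes in each. The block gave 44 and 90 of all genes in the PFD pulldown and 0 in the interaction, no filter on low counts 59 and 93, and 213 and 298, at least 10 counts 9 and 5 in the interaction, at least 100 counts 10 higher there, cyclic loess 14 and 43, and 2 higher in the interaction, and all 8 libraries in 1 fit 27 and 56 in the PFD pulldown. Leaving out 1 library moved these from 28 to 1081 higher and 43 to 1353 lower in the PFD pulldown and from 0 to 2489 and 0 to 1442 in the interaction, where 0 to 8 J-domain genes were higher and 0 to 1 lower.

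Between the inputs, glmTreat left 1 J-domain gene higher and 1 lower, 2 partners higher and 1 lower, and 1183 and 2046 of all genes in place of 2898 and 3685. Leaving out 1 library gave 4 to 16 J-domain genes higher and 1 to 10 lower, 4 to 12 partners higher and 1 to 10 lower, and 1791 to 4702 and 1835 to 6382 of all genes. Partners lower numbered 6 with DESeq2 and with no filter, 7 with cyclic loess and 8 with at least 100 counts. Where a group keeps 1 library, that library is assumed to vary like the others. The causes were not tested.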
